A study of Rattus norvegicus with 13 samples.

Results

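Polycomb repressive complex 2 (PRC2) was examined through 10 genes, taken by symbol from a table of 14790 genes. All 10 were present and all had a mean normalized count of at least 1. They are *Ezh2* and *Ezh1*, *Eed*, *Suz12*, *Rbbp4* and *Rbbp7*, and the accessory genes *Phf1*, *Mtf2*, *Phf19* and *Jarid2*. The question addressed was whether these genes are expressed differently within the window of susceptibility (WOS), an age at which the rat mammary gland is prone to cancer after exposure, and outside it. The material was mammary epithelial cells of 13 Wistar-Furth rats, a mammary cancer susceptible strain, and each rat gave 1 RNA-seq library. Of these, 6 rats were 6 weeks old (within WOS, rats 70, 71, 75, 80, 84 and 86) and 7 were 10 weeks old (outside WOS, rats 72, 74, 78, 81, 83, 85 and 87). The labels name no transgene and no agent for either age. The abdominal and inguinal glands were digested with collagenase and passed over a filter to enrich ductal fragments, which the study's methods describe as mainly epithelial with fibroblasts and immune cells. In such bulk samples, fewer cells of a type and less RNA per cell cannot be told apart.

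PRC2 places methyl groups on lysine 27 of histone H3 (H3K27), a mark of silenced developmental genes. *Ezh2* and *Ezh1* encode alternative catalytic subunits, *Eed* binds the mark and stimulates the enzyme, *Suz12* holds the core together, and *Rbbp4* and *Rbbp7* encode closely related histone-binding proteins. *Phf1*, *Mtf2* and *Phf19* encode the Polycomb-like proteins of the PRC2.1 form, while *Jarid2* belongs to the PRC2.2 form. *Ezh2* is known to be most abundant in dividing cells and *Ezh1* to persist in resting cells, and in the mammary gland *Ezh2* is known for maintaining progenitor cells.

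Values are counts estimated per gene, multiplied by the authors with a factor for each library and rounded, here called normalized counts. The totals of these values ran from 13261906 to 15659533 over the 13 rats, and since they are scaled they are not read depths. Both ages were compared by limma, run on log2(normalized count + 1), a scale that understates changes of low genes. Its p-values were adjusted after Benjamini-Hochberg over all 14790 genes. A gene was called differentially expressed (DE) at an adjusted p under 0.05, and positive log2 fold changes mean higher expression at 6 weeks. After each age mean was removed, the first component of the remaining variation held 28.3% of it. A gap on this component separated a smaller set of 5 (rats 75 and 80 within WOS, and rats 78, 81 and 83 outside WOS) from a larger set of the other 8. No label names this split, so values by set are given where they bear on a gene. Markers in the libraries included 15 luminal and 9 basal epithelial genes, none at 0 in any rat, with summed normalized counts of 34334 to 66467 (luminal) and 25783 to 40337 (basal) within WOS. Outside WOS the same sums were 49622 to 74677 and 36077 to 46912.

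Promoter sequences are shown for 4 genes on which the results below turn, namely the catalytic gene *Ezh2*, the pair of histone-binding genes *Rbbp4* and *Rbbp7*, and the accessory gene *Phf1*. Each is the 250 bases before the annotated start, 5′ to 3′ on the strand of the gene, from RefSeq (build GRCr8). The windows are chr4:77687184-77687433 (minus strand) for *Ezh2*, chr5:146959502-146959751 (minus strand) for *Rbbp4*, chrX:35563031-35563280 (minus strand) for *Rbbp7* and chr20:5019725-5019974 (plus strand) for *Phf1*. Capitals mark a CCAAT box (CCAAT, or ATTGG where it lies on the other strand) or the core of a site for E2F, a family of cell cycle regulators (TTCCCGC or TTCGCGC or TTGCCGC or TTGGCGC, on either strand).
Ezh2: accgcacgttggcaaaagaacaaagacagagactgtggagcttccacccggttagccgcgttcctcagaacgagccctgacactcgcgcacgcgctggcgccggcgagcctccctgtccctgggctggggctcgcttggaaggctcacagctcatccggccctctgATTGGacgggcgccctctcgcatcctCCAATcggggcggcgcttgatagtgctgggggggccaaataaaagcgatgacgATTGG
Rbbp4: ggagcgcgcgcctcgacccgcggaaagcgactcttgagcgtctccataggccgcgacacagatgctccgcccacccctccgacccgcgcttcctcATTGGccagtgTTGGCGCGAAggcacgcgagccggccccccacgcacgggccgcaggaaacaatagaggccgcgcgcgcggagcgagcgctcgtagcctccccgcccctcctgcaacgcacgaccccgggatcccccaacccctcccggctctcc
Rbbp7: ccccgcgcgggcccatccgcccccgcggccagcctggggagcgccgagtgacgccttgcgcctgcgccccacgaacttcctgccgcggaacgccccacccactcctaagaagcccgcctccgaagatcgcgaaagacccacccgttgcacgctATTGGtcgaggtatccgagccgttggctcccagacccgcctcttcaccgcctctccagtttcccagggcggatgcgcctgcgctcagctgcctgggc
Phf1: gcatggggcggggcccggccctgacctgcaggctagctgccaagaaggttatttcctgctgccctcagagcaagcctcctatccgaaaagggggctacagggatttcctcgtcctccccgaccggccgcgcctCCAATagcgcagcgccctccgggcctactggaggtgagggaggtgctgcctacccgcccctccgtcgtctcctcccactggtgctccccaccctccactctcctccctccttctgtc

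A window was held for 9 of the 10 genes. CCAAT was found in 6 of the 9 (*Ezh2* with 3 matches, *Suz12*, *Rbbp4*, *Rbbp7*, *Phf1* and *Jarid2*), against 34% of 33469 rat promoter windows of the same length. The E2F core was found in 4 (*Suz12*, *Rbbp4*, *Mtf2* and *Phf19*), against 7.59% of all windows and 9 of 25 (36%) windows of proliferation genes. In *Rbbp4* the capitals TTGGCGCGAA hold 2 overlapping matches, 1 on each strand. The cell cycle element TTTGAA, was in the *Suz12* window alone among the 9 and in 16.2% of all windows. The *Ezh2* and *Rbbp7* windows held none of the 4 E2F words. These matches describe the letters of the windows, and no binding was measured.

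No PRC2 gene was DE between the ages in the main limma fit. The study, which combined EBSeq, DESeq and edgeR, reports *Phf1* as up-regulated outside WOS. In limma 0 of 10 had an adjusted p under 0.05 in either direction, where 8.71% of all genes tested were DE with higher expression at 6 weeks and 7.39% with higher expression at 10 weeks. The lowest adjusted p among the members was 0.0645. At an unadjusted p under 0.05 there were 4 members (*Ezh1*, *Suz12*, *Phf1* and *Phf19*), or 4 of 10 against 31.6% of all genes. No member had ages that did not overlap, against 6.07% of all genes. The log2 fold change was above 0 for 5 members and below 0 for 5, with a median of -0.01 beside 0.03 over all genes tested, and it was under 1.5-fold in size for 8 of the 10. The summed normalized count of the 10 genes was 6337 to 7699 in the rats within WOS and 6239 to 7758 in those outside WOS. The absence of a call does not show equal expression, and the 95% interval of each difference is given below.

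**Figure D1:**
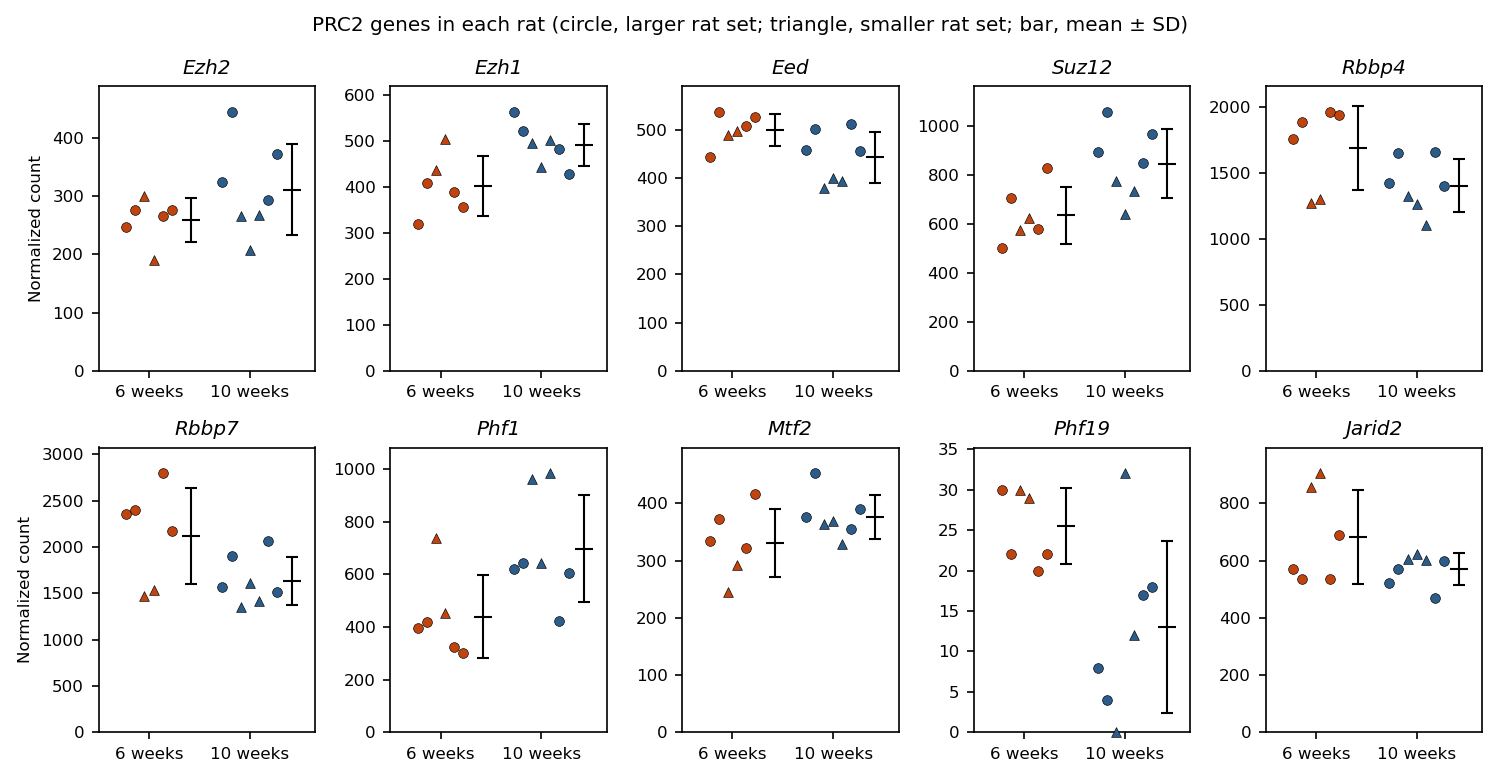
Normalized count (y axis, from 0) of each PRC2 gene in each of 6 rats at 6 weeks and 7 rats at 10 weeks (x axis). Circles are rats of the larger set, triangles rats of the smaller set, and the bar beside each group is its mean ± SD. The ages overlap for all 10 genes. For *Rbbp4* and *Rbbp7* both triangles at 6 weeks sit below the 4 circles.

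The catalytic subunits were described first. *Ezh2* (ENSRNOG00000006048) had 247, 276, 300, 190, 265 and 275 normalized counts in rats 70, 71, 75, 80, 84 and 86, and outside WOS its lowest, median and highest values were 208, 293 and 444. The means were 259 ± 37.9 (SD, n = 6) and 311 ± 78.0 (SD, n = 7). Of the 7 older rats, 3 lay above every younger rat, and only rat 80 lay below all older rats. The log2 fold change of *Ezh2* was -0.24 (SE 0.17, 95% interval -0.61 to 0.13, limma adjusted p = 0.359). The upper end of this interval is a 1.09-fold higher level of *Ezh2* within WOS.

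*Ezh1* (ENSRNOG00000020336) had 319, 409, 438, 505, 390 and 356 normalized counts in rats 70, 71, 75, 80, 84 and 86. In rats 72, 74, 78, 81, 83, 85 and 87 it had 564, 523, 496, 443, 503, 484 and 429. The rats of the larger set at 6 weeks, with 319 to 409, lay below every older rat, whereas rats 75 and 80 lay among them. Means of *Ezh1* were 403 ± 65.0 (SD, n = 6) at 6 weeks and 492 ± 46.0 (SD, n = 7) at 10 weeks, with a log2 fold change of -0.30 (SE 0.12, 95% interval -0.55 to -0.04, limma adjusted p = 0.102). In the larger rat set *Ezh1* was DE, with a log2 fold change of -0.44 (limma adjusted p = 0.045), and in the smaller set it was at -0.03 (SE 0.167).

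The balance of the catalytic subunits, taken in each rat as the log2 ratio of *Ezh2* to *Ezh1*, was compared by an exact two-sided permutation test over all 1716 splits, adjusted over 3 such ratios. Since ratios of different genes are not corrected for transcript length, only their difference between the ages is read. The ratio was -0.64 ± 0.39 (SD, n = 6) at 6 weeks and -0.69 ± 0.34 (SD, n = 7) at 10 weeks, a difference of 0.06 with exact permutation p = 0.778. It spanned -1.41 to -0.37 at 6 weeks and -1.09 to -0.21 at 10 weeks. Rat 80, at -1.41, had the lowest ratio of all 13 rats. The sign of the difference turned without rat 81 (-0.0070) and within the smaller rat set (-0.01).

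The scaffold genes *Eed* and *Suz12* had fold changes of opposite sign, and neither was DE. *Suz12* (ENSRNOG00000058663) had 503, 708, 575, 625, 579 and 829 normalized counts in rats 70, 71, 75, 80, 84 and 86, and 894, 1059, 776, 643, 737, 852 and 970 in rats 72, 74, 78, 81, 83, 85 and 87. All 6 younger rats lay below the older median of 852, and 4 of them lay below every older rat. The means were 636.5 ± 116 (SD, n = 6) and 847 ± 142 (SD, n = 7), with a log2 fold change of -0.41 (SE 0.14, 95% interval -0.73 to -0.10, limma adjusted p = 0.0686). Without rat 81 or without rat 86 *Suz12* was DE (adjusted p = 0.0344 at the lowest). *Eed* (ENSRNOG00000017509) had 443, 537, 489, 497, 507 and 526 within WOS, in the same order of rats, and outside WOS its lowest, median and highest values were 380, 455 and 511. Its means were 499.8 ± 33.1 (SD, n = 6) and 443 ± 53.1 (SD, n = 7), with a log2 fold change of 0.18 (SE 0.10, 95% interval -0.04 to 0.40, limma adjusted p = 0.239).

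The histone-binding genes *Rbbp4* and *Rbbp7* are shared with other chromatin complexes and are close paralogs, so reads that fit both could be divided between them by the counting. *Rbbp4* (ENSRNOG00000021492) had 1759, 1885, 1269, 1299, 1961 and 1934 normalized counts in rats 70, 71, 75, 80, 84 and 86, and 1424, 1649, 1322, 1264, 1103, 1654 and 1399 in rats 72, 74, 78, 81, 83, 85 and 87. The 4 rats of the larger set at 6 weeks lay above every older rat, while rats 75 and 80 lay in the lower part of the older range. The means were 1684 ± 318 (SD, n = 6) and 1402 ± 199.9 (SD, n = 7), with a log2 fold change of 0.25 (SE 0.14, 95% interval -0.06 to 0.57, limma adjusted p = 0.247).

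*Rbbp7* (ENSRNOG00000005157) showed the same rats high and low. It had 2359, 2397, 1474, 1540, 2795 and 2170 normalized counts in rats 70, 71, 75, 80, 84 and 86, and 1574, 1909, 1357, 1614, 1420, 2067 and 1518 in rats 72, 74, 78, 81, 83, 85 and 87. Again 4 of 6 rats within WOS exceeded all rats outside WOS, and rats 75 and 80 did not. *Rbbp7* means were 2122 ± 519 (SD, n = 6) and 1637 ± 259 (SD, n = 7), and the log2 fold change was 0.35 (SE 0.17, 95% interval -0.01 to 0.71, limma adjusted p = 0.171). In the larger rat set *Rbbp7* was DE, with a log2 fold change of 0.47 (limma adjusted p = 0.0476), and in the smaller set it was at 0.05 (SE 0.164). The log2 ratio of *Rbbp7* to *Rbbp4* was 0.32 ± 0.13 (SD, n = 6) and 0.22 ± 0.13 (SD, n = 7), a difference of 0.10 (exact permutation test, two-sided, p = 0.205, adjusted p = 0.308), which turned to -0.02 within the smaller rat set.

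Among the Polycomb-like genes, *Phf1* (ENSRNOG00000000480) had 396, 421, 737, 455, 324 and 303 normalized counts in rats 70, 71, 75, 80, 84 and 86. Rats 72, 74, 78, 81, 83, 85 and 87 had 619, 644, 964, 642, 984, 424 and 604. Of the younger rats, 4 lay below every older rat and rat 80 lay just inside the older range, whereas rat 75 lay within the upper older values. The means were 439 ± 157 (SD, n = 6) and 697 ± 204 (SD, n = 7). The log2 fold change of *Phf1* was -0.68 (SE 0.23, 95% interval -1.18 to -0.18, limma adjusted p = 0.0645). Without rat 75 it was -0.84 (adjusted p = 0.02) and *Phf1* was DE. It was also DE in the larger rat set, at -0.66 (limma adjusted p = 0.0326), and without rat 85.

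*Phf19* (ENSRNOG00000018874) was at low values throughout. It had 30, 22, 30, 29, 20 and 22 normalized counts in rats 70, 71, 75, 80, 84 and 86, and 8, 4, 0, 32, 12, 17 and 18 in rats 72, 74, 78, 81, 83, 85 and 87. Of the older rats, 6 of 7 lay below every younger rat and rat 81 lay above all of them. The means were 25.5 ± 4.64 (SD, n = 6) and 13 ± 10.6 (SD, n = 7), with a log2 fold change of 1.47 (SE 0.64, 95% interval 0.10 to 2.85, limma adjusted p = 0.132). Precision at this level differed between the libraries. In rat 78, where *Phf19* is listed at 0, only 14 of the whole numbers from 1 to 30 occurred in the table, compared with 15 in rat 80, 20 to 26 in 5 other rats and all 30 in the other 6. Low values therefore move in larger steps in some rats than in others. In the smaller set, rats 75, 80, 78, 81 and 83 had 20, 15, 14, 23 and 30 such numbers, and rats of the larger set had 22 to 30. Whether this bears on the split of the rats was not tested.

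The log2 ratio of *Phf19* to *Phf1* differed between the ages. It was -3.68, -4.20, -4.57, -3.93, -3.95 and -3.72 in rats 70, 71, 75, 80, 84 and 86, and -6.11, -7.01, -9.91, -4.28, -6.24, -4.56 and -4.99 in rats 72, 74, 78, 81, 83, 85 and 87. Of the 6 younger rats, 5 lay above every older rat. The means were -4.01 ± 0.33 (SD, n = 6) and -6.16 ± 1.93 (SD, n = 7), a difference of 2.15 on the log2 scale (exact permutation test, two-sided, p = 0.00874, adjusted p = 0.0262 over 3 ratios). The size rests partly on rat 78, where *Phf19* is listed at 0, and the difference ran from 1.53 to 2.46 with single rats left out. The adjusted p rose to 0.0568 without rat 70, 80, 84 or 86 and to 0.0857 in the larger rat set, where the difference was 1.78.

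**Figure D2:**
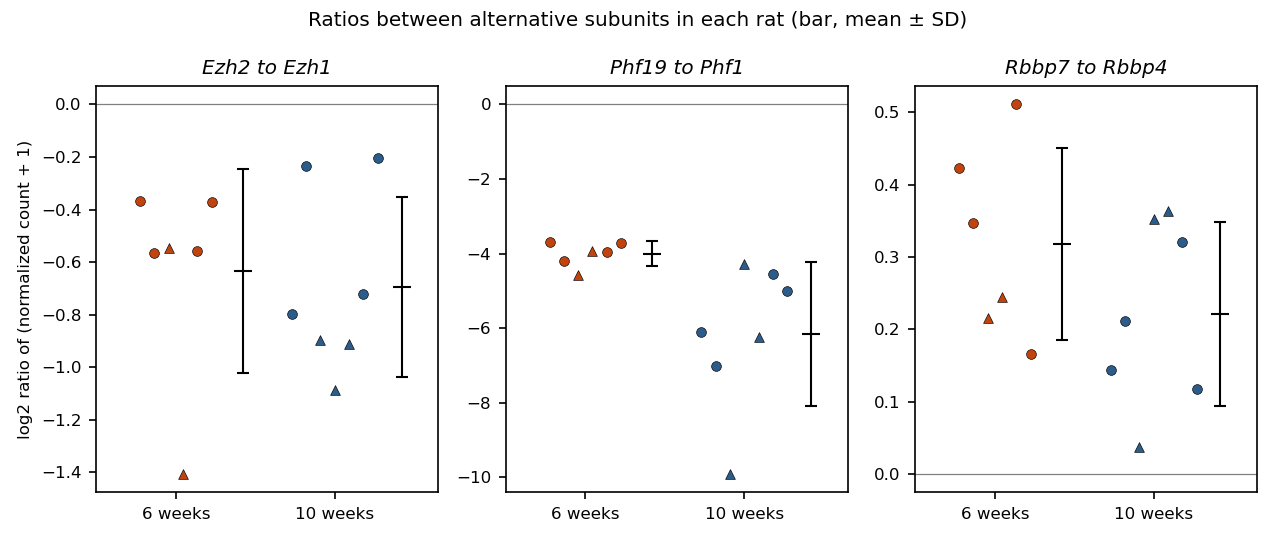
Log2 ratio (y axis, separate scale in each panel) of alternative PRC2 subunits in each rat at 6 weeks and at 10 weeks (x axis). Circles are the larger rat set, triangles the smaller, and bars the mean ± SD. The ages overlap in all 3 panels, and *Phf19* to *Phf1* has means of -4.01 at 6 weeks and -6.16 at 10 weeks.

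The third Polycomb-like gene, *Mtf2* (ENSRNOG00000000075), ran from 245 to 416 normalized counts at 6 weeks (median 328) and from 329 to 452 at 10 weeks (median 369). Its means were 330.3 ± 60.0 (SD, n = 6) and 376 ± 38.4 (SD, n = 7), with a log2 fold change of -0.20 (SE 0.13, 95% interval -0.48 to 0.07, limma adjusted p = 0.296). *Jarid2* (ENSRNOG00000045918), of the PRC2.2 form, had 572, 535, 858, 905, 536 and 689 normalized counts in rats 70, 71, 75, 80, 84 and 86 and 470 to 625 outside WOS (median 599). Rats 75 and 80 held the top values of *Jarid2*, and together with rat 86 they lay above every older rat. *Jarid2* means were 682.5 ± 165 (SD, n = 6) and 571 ± 55.6 (SD, n = 7), with a log2 fold change of 0.23 (SE 0.15, 95% interval -0.09 to 0.55, limma adjusted p = 0.304).

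**Figure D3:**
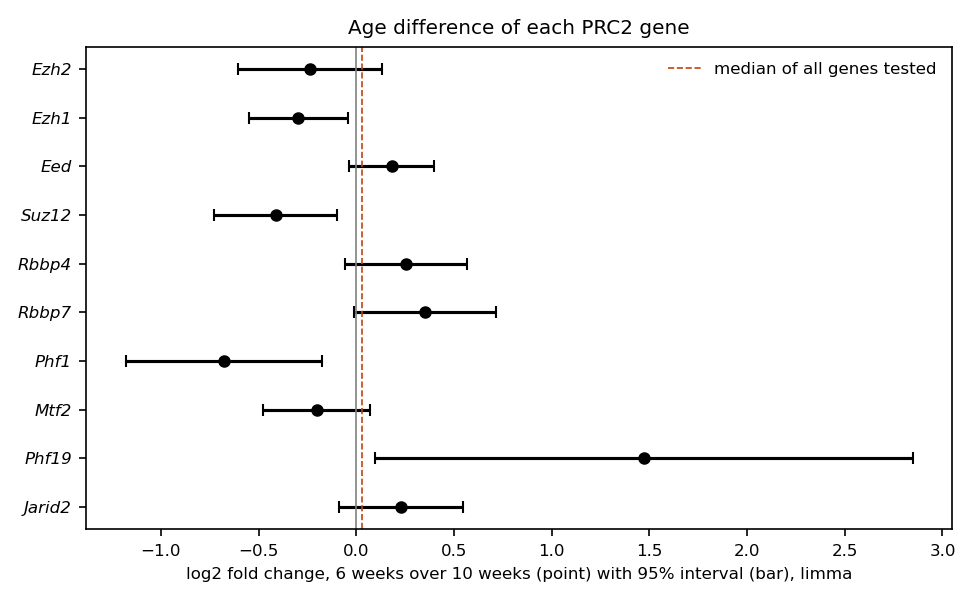
Log2 fold change of each PRC2 gene, 6 weeks over 10 weeks (x axis), with its 95% interval (bars) from limma. Intervals of *Ezh1*, *Suz12* and *Phf1* lie below 0 and that of *Phf19* above 0, while no gene passed the adjusted threshold. The dashed line is the median of all 14790 genes, 0.03.

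Calls differed with how the spread between rats was treated and with which rats were used. With limma-trend, which lets the spread follow the mean, 2 of 10 members were DE (*Suz12* and *Phf1*, both higher at 10 weeks) against 17.6% of all genes. With sample quality weights 5 of 10 were DE, with *Ezh1*, *Suz12* and *Phf1* higher at 10 weeks and *Rbbp4* and *Rbbp7* higher at 6 weeks, against 38.2% of all genes. In the larger rat set 3 of 10 were DE (*Ezh1* and *Phf1* higher at 10 weeks, *Rbbp7* higher at 6 weeks) against 23.5%, and with the rat set as a term 2 of 10 (*Suz12* and *Phf1*, higher at 10 weeks) against 22.5%. In the smaller rat set, with 5 rats, limma called 0 members and 0 of all 14770 genes tested there (0%). At an unadjusted p under 0.05 it gave 1 of 10 members (*Jarid2*) and 1976 of the 14770 genes. The sign of every member's log2 fold change was kept in all 23 alternatives tried, but a kept sign can go with a value near 0. In the smaller rat set *Ezh1* was at -0.03 (SE 0.167), *Ezh2* at -0.04 (SE 0.273), *Rbbp7* at 0.05 (SE 0.164) and *Rbbp4* at 0.07 (SE 0.165). The other members there were at -0.26 (*Suz12*), 0.34 (*Eed*), -0.40 (*Mtf2*), 0.53 (*Jarid2*), -0.55 (*Phf1*) and 2.02 (*Phf19*). Limma-trend, no filter and a mean of at least 10 leave a log2 fold change as it is, so they could not turn a sign.

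PRC2 genes covaried with the split of the rats, which was found from all genes of these same libraries and so gives no independent test. The Pearson r with the first component over 13 rats, after each age mean was removed, was -0.83 for *Rbbp4*, -0.76 for *Rbbp7* and *Eed*, -0.72 for *Ezh2*, -0.62 for *Suz12* and -0.61 for *Mtf2*. It was 0.71 for *Jarid2*, 0.67 for *Phf1*, 0.25 for *Ezh1* and -0.14 for *Phf19*. The median of its absolute value was 0.69 over the members and 0.46 over all genes. At 6 weeks *Rbbp4* was 1269 to 1299 in the smaller set and 1759 to 1961 in the larger, and *Jarid2* was 858 to 905 and 535 to 689. At 10 weeks *Eed* was 380 to 399 in the smaller set and 455 to 511 in the larger, and *Suz12* was 643 to 776 and 852 to 1059. What distinguishes the sets was not tested.

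Pairs of members were compared over the rats after each age mean was removed. Over all 13 rats 7 of 45 pairs passed an adjusted p under 0.05 for Pearson r by permutation within the ages (100000 permutations). However, these rats fall into the sets above. *Rbbp4* and *Rbbp7* had r = 0.90, *Rbbp7* and *Jarid2* -0.89, *Rbbp4* and *Phf1* -0.80, and *Eed* and *Suz12* 0.75. By permutation of Spearman's rho their adjusted p was 0.0203, 0.024, 0.0815 and 0.0474. Of the other pairs that passed by Pearson r, *Rbbp4* with *Jarid2* had 0.024, *Rbbp7* with *Phf1* 0.105 and *Rbbp4* with *Mtf2* 0.148. Within the larger rat set (n = 8) 0 of 45 pairs passed an exact permutation test within the ages, with a lowest adjusted p of 0.156. With 576 permutations the smallest p is 0.00174, so a single pair cannot go below an adjusted p of 0.0781 and the test could not call it alone. There *Rbbp4* and *Rbbp7* had r = 0.79, *Rbbp7* and *Jarid2* -0.66, *Rbbp4* and *Phf1* -0.52, and *Eed* and *Suz12* 0.63. *Rbbp4* with *Jarid2* went from -0.81 over 13 rats to -0.22. Within this set *Suz12* and *Mtf2* had r = 0.89 (Spearman's rho 0.93, exact permutation p = 0.00868 and 0.0139, adjusted p = 0.156 and 0.469) and 0.95 without the 2 rats farthest from the median of *Suz12*.

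**Figure D4:**
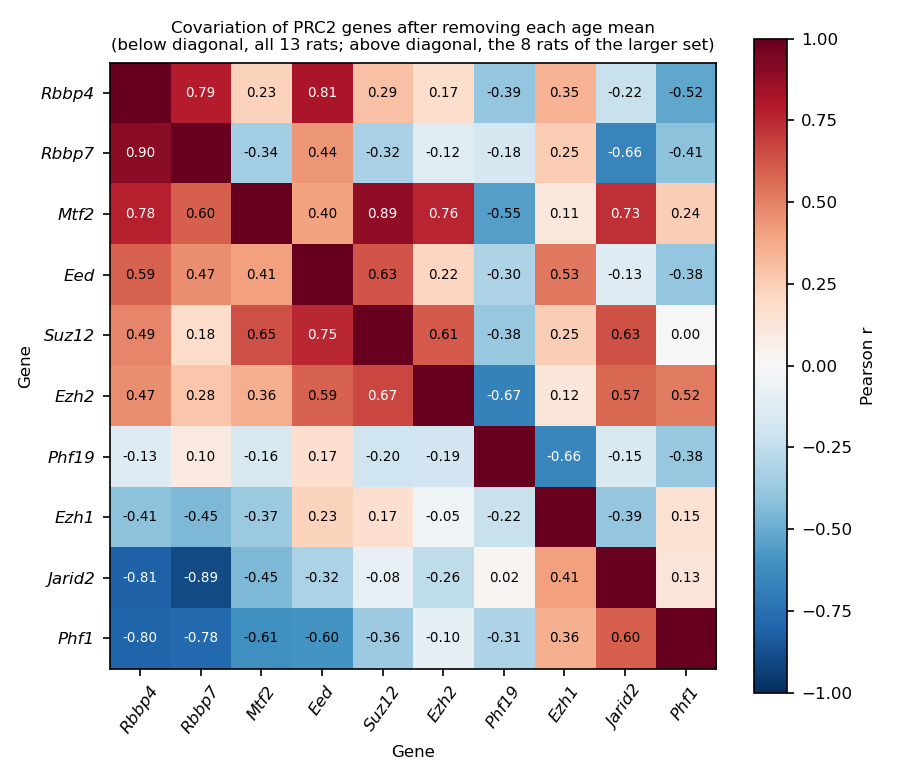
Pearson r between PRC2 genes after each age mean was removed, over all 13 rats (below the diagonal) and over the 8 rats of the larger set (above it). Red is positive and blue negative. *Rbbp4* with *Jarid2* is -0.81 below the diagonal and -0.22 above it, and *Rbbp4* with *Rbbp7* is 0.90 and 0.79.

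Genes with the pattern most like *Ezh2* and *Phf1* were taken as the 5 with the highest Pearson r over 13 rats, after each age mean was removed, among 8849 genes with a mean of at least 100. They are a description and share libraries and the rat sets. For *Ezh2* they were *Pde7a* (0.93), *Ptcd3* (0.93), *LOC688906* (0.92), *Cttnbp2nl* (0.91) and *Enpp4* (0.90). For *Phf1* they were *Srsf4* (0.95), *Zfp821* (0.93), *Sart3* (0.93), *Cluh* (0.92) and *Rab11fip3* (0.91).

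Proliferation genes, among which *Ezh2* is often counted, were set beside the members. Of 31 tested proliferation genes that are no PRC2 members, 26 were DE with higher expression at 6 weeks and 0 at 10 weeks, with a median log2 fold change of 2.09. The mitotic genes *Tpx2* (log2 fold change 3.67), *Birc5* (3.37), *Ccnb1* (3.13), *Nusap1* (3.08) and *Top2a* (3.05) had the largest. Their score, the mean log2(normalized count + 1) over the list, was 7.38 ± 0.41 (SD, n = 6) at 6 weeks and 5.40 ± 0.52 (SD, n = 7) at 10 weeks. All 31 had log2 fold changes above 0, beside -0.24 (95% interval up to 0.13) for *Ezh2*. The count ran from 23 to 27 with single rats left out. Within each age, none of 20 relations between a member and this score passed the threshold (exact permutation test, two-sided, lowest adjusted p = 0.233), and each age mixes rats of both sets. At 6 weeks the Pearson r was 0.87 for *Rbbp7*, 0.82 for *Rbbp4*, -0.79 for *Ezh1* and -0.78 for *Phf1*. At 10 weeks these were 0.29, -0.22, -0.35 and -0.27, and the largest was 0.81 for *Phf19*. Spearman's rho of *Phf19* at 10 weeks was 0.57 (exact permutation test, adjusted p = 0.691). Without the 2 rats farthest from the median score its r fell to 0.13. The same step at 6 weeks gave 0.70 for *Rbbp7*, 0.68 for *Rbbp4*, -0.98 for *Ezh1* and -0.66 for *Phf1*. With 6 and 7 rats, the absence of a call does not show the absence of a relation. Of 12 genes of the E2F and retinoblastoma family, 5 were DE with higher expression at 6 weeks, namely *E2f8* (2.53), *E2f2* (1.93), *E2f7* (0.99), *E2f1* (0.86) and *Rbl1* (0.70). Another 2, *E2f5* (-0.78) and the cell cycle inhibitor *Rb1* (-0.59), were higher at 10 weeks.

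Genes of other complexes that contain *Rbbp4* or *Rbbp7* were counted in the same way. Of 5 genes of chromatin assembly factor 1 (CAF-1), the Asf1 histone chaperones and *Hat1*, 3 (60%) were DE with higher expression at 6 weeks. This stood beside 8.71% of all genes, and 0 were DE with higher expression at 10 weeks. CAF-1 deposits histones behind the replication fork. *Chaf1a* had a log2 fold change of 1.09 (SE 0.16, limma adjusted p = 0.000976), *Chaf1b* 1.93 (SE 0.40, adjusted p = 0.00739) and *Asf1b* 2.12 (SE 0.53, adjusted p = 0.0177), and the other 2, *Hat1* at 0.09 and *Asf1a* at -0.22, did not pass. Of 12 tested genes of the nucleosome remodelling and deacetylase complex (NuRD), 1 was DE, the remodeller *Chd4* (-0.29, adjusted p = 0.0374), higher at 10 weeks, and the median was -0.05, the count being 8.33% beside 7.39% of all genes. Of 13 genes of the Sin3 deacetylase complex, 1 was DE, the scaffold *Sin3a* (-0.31, adjusted p = 0.0436), also higher at 10 weeks (7.69%), with a median of -0.29.

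PRC1, the other main Polycomb complex, ubiquitinates histone H2A. Of 29 tested genes of a list of 30, 7 (24.1%) were DE with higher expression at 10 weeks, beside 7.39% of all genes. With higher expression at 6 weeks 0 were DE, and the median log2 fold change was -0.14. The 5 with the largest change were *Pcgf6* (-0.76, SE 0.13, limma adjusted p = 0.00199), *Rybp* (-0.58, adjusted p = 0.00716), *Scmh1* (-0.53, adjusted p = 0.0263), *E2f6* (-0.42, adjusted p = 0.039) and *Pcgf5* (-0.41, adjusted p = 0.0467). *Pcgf6*, *Pcgf5*, *Rybp* and *E2f6* encode parts of variant PRC1 complexes, in which the RING protein pairs with RYBP in place of a CBX protein. The catalytic *Rnf2* had a log2 fold change of 0.02 and *Ring1* of 0.36, and neither passed. The count at 10 weeks was 2 (*Pcgf6* and *Rybp*) with library size scaling. With single rats left out it ran from 2 to 8, and in 11 of these 13 fits it was only 2 to 4. It was 12 with sample quality weights, where 38.2% of all genes were DE in either direction. Leaving out rat 87 gave 2, and in that fit 1558 of all genes were DE against 2381 in the main fit. With higher expression at 6 weeks the count became 4 with sample quality weights (*Ring1*, *Cbx6*, *Cbx8* and *Scml2*), 2 in the larger rat set (*Cbx6* and *Scml2*), 1 with limma-trend or the rat set as a term (*Cbx6*), and 0 to 2 with single rats left out.

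**Figure D5:**
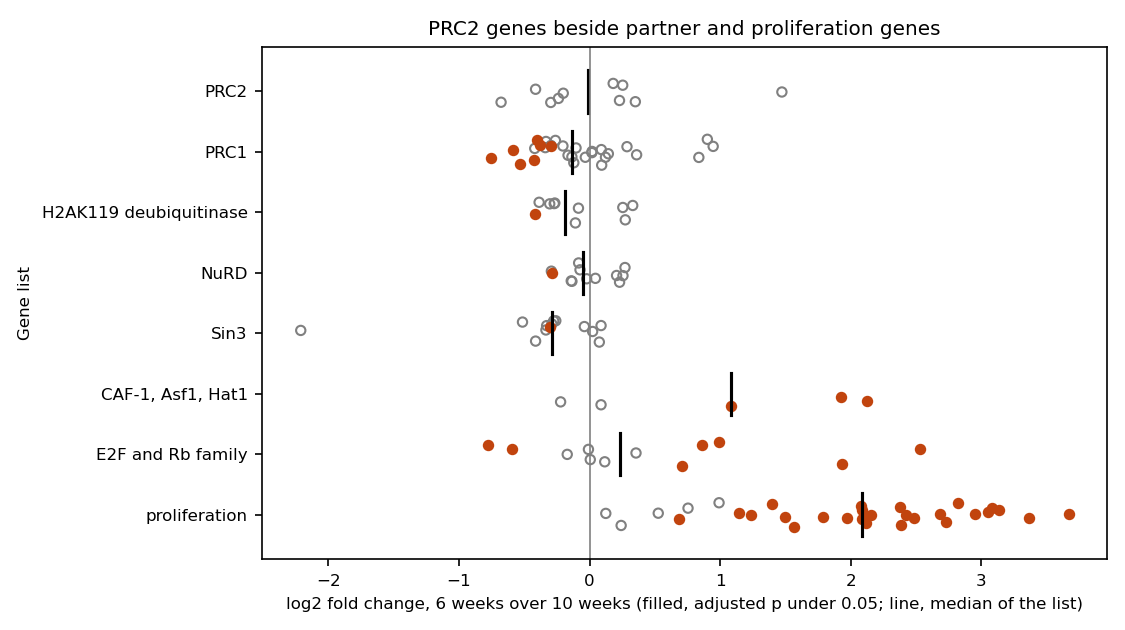
Log2 fold change, 6 weeks over 10 weeks (x axis), of each gene in PRC2 and in lists of partner and proliferation genes (y axis). Filled points are genes with a limma adjusted p under 0.05, and lines are list medians. No PRC2 point is filled, while 26 of 31 proliferation genes are filled to the right of 0.

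Genes that oppose PRC2 or work with it, and genes it often silences, were also tested. The H3K27 demethylase genes *Kdm6a* (log2 fold change -0.29) and *Kdm6b* (-0.53) were not DE (limma adjusted p = 0.113 and 0.245). Of 10 genes of the histone H2A deubiquitinase that reverses the PRC1 mark, 1 was DE, the transcription factor *Foxk2* (-0.41, adjusted p = 0.0381), higher at 10 weeks, or 10% beside 7.39% of all genes. Of 4 tested genes for further PRC2 partners, 0 were DE, with log2 fold changes of -0.29 for *Aebp2* and -0.27 for *Lcor*. Of 26 genes often silenced by Polycomb, such as *Hox* and cell cycle inhibitor genes, 13 were tested and 1 was DE, the inhibitor *Cdkn1c* (0.82, adjusted p = 0.0352), higher at 6 weeks, or 7.69% beside 8.71% of all genes. The median of the tested genes was 0.19. The rest of the list did not have exactly 1 entry in the deposited table. Fully silenced genes could be among these, and nothing is shown for them.

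Markers of other cell types also differed between the ages. Of 8 tested fibroblast markers 4 were DE with higher expression at 6 weeks and 0 at 10 weeks. Their summed normalized count was 106929 to 223018 within WOS and 19675 to 56084 outside WOS. The collagen genes *Col3a1* (mean 107800 within and 24790 outside WOS) and *Col1a1* (50180 and 13320) held most of this sum. The 4 markers not DE were *Dcn* (log2 fold change 0.57), *Dpt* (0.52), *Pdgfra* (0.13) and *Fbln1* (-0.24). Of 7 tested mast cell markers 6 were DE with higher expression at 6 weeks, with log2 fold changes from 1.94 (*Hdc*) to 3.86 (*Cpa3*), while *Kit*, which is also a luminal marker, was higher at 10 weeks (-0.71). Of 6 adipocyte markers 2 were higher at 6 weeks, of 6 lymphocyte markers 1 was higher at each age, and of 9 macrophage and 6 endothelial markers 0 were DE. Among 15 luminal markers 2 (*Kit* and *Epcam*) and among 9 basal markers 1 (*Cnn1*) were higher at 10 weeks. The part of these cells in the values of the PRC2 genes was not tested.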

How the data were processed

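RNA-seq of rat mammary epithelial cells was analysed from a deposited table with 1 column for each of 13 rats, and all 13 columns were used. The authors estimated gene counts with RSEM 1.2.22, multiplied each library by a factor and deposited the result rounded to whole numbers. The unit of these deposited values is therefore taken as a score, here called normalized counts, and not as raw counts. The submitters' processing notes name the rn5 build, RSEM, edgeR and DESeq2, and the build behind the gene counts is not otherwise given in the sources used here. The table also holds the authors' comparison of the ages (fold change, mean abundance, likelihood ratio, p-value, false discovery rate and derived columns) and a word on nuclear or cytoplasmic location, none of which was used here.

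The comparison of ages used limma 3.58.1 (R 4.3.3) without covariates on values transformed as log2(normalized count + 1). Genes needed a mean of 1 or more, which all 14790 had. Tests were two-sided, with Benjamini-Hochberg adjustment over these genes and a threshold of 0.05. The fit was tested on simulated data. Each rat is a separate animal. Ratios and correlations were tested by permutation with numpy 2.4.6 and scipy 1.17.1 under Python 3.11.15 (tables read by pandas 2.3.3). Rat sets were split at the largest gap, of 27.3, on the first residual component. Scaled values do not give the reads per library, and only the steps of low values show that precision differed, so no counting intervals are given.

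The genes named are the 10 members, at most the 5 DE genes with the largest change of every other list, and the 5 genes most like *Ezh2* and *Phf1*. Exceptions named after their values were seen are *Hat1*, *Asf1a*, *Rnf2*, *Ring1*, *Cbx6*, *Cbx8*, *Scml2*, *Kdm6a*, *Kdm6b*, *Aebp2*, *Lcor*, *Dcn*, *Dpt*, *Pdgfra* and *Fbln1*. The members and lists were chosen with earlier results of these data known. Alternatives were median-ratio and library size scaling, a pseudocount of 0.1, a mean of at least 10, no filter, limma-trend, sample quality weights, each rat left out, each rat set alone and the rat set as a term. Their use on the PRC1 list was added after the data were seen, as was the test of gene pairs within the larger rat set. Promoter windows were matched by symbol for 9 of 10 members. The Hi-C data of the study were not analysed here.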

Additional observations from a re-analysis of the deposited data

Results flagged for a closer look

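In 2 of 26 groups of rats tested, a rat stood apart from the others by Dixon's criterion, where chance marks about 1 in 20 groups. At 6 weeks, *Phf1* had 737 normalized counts in rat 75, and the nearest rat had 455, a gap of 0.65 of the range of the group. At 6 weeks, the log2 ratio of *Ezh2* to *Ezh1* was -1.41 in rat 80, and the nearest rat was at -0.57, a gap of 0.81 of the range. Rats 75 and 80 are the members of the smaller rat set at this age.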

How the results depend on the processing

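The number of PRC2 genes DE with higher expression at 6 weeks was 0 and became 1 in the larger rat set and 2 with sample quality weights. With higher expression at 10 weeks it was 0 and became 2 in the larger rat set, 2 with limma-trend, 2 with the rat set as a term and 3 with sample quality weights. With single rats left out it ran from 0 to 1 (1 without rat 75, 80, 81, 85 or 86), and the fits that gave 1 called 2220 to 2680 genes in all. In either direction 23.5% of all genes were DE in the larger rat set, 17.6% with limma-trend, 22.5% with the rat set as a term and 38.2% with sample quality weights. Of 230 alternative values of the members' log2 fold changes, 213 stayed on the same side of the threshold and 17 moved past it. The 213 include those with no filter, a fit equal to the main fit because every gene had a mean of at least 1. They also include those of the smaller rat set, where no gene was called. All 230 kept the sign, which could not turn with limma-trend, no filter or a mean of at least 10. Those of *Ezh2*, *Ezh1*, *Rbbp4* and *Rbbp7* lay near 0 in the smaller rat set. In the smaller rat set, with 5 rats, limma called 0 members and 0 of all 14770 genes (1976 at an unadjusted p under 0.05), so counts of 0 there hold for every list. The *Phf19* to *Phf1* ratio difference kept its sign and ran from 1.53 to 2.46 with single rats left out. It missed the threshold in the larger rat set (1.78, exact permutation test, adjusted p = 0.0857). In the smaller rat set it also missed (2.56, adjusted p = 0.9), where p cannot fall below 0.1. The *Ezh2* to *Ezh1* difference turned to -0.010 in the smaller rat set and ran from -0.0070 (without rat 81) to 0.21 with single rats left out. The *Rbbp7* to *Rbbp4* difference turned to -0.021 in the smaller rat set. PRC1 genes DE with higher expression at 10 weeks numbered 7, with 2 under library size scaling and 0 in the smaller rat set. With single rats left out they numbered 2 to 8, and only 2 to 4 in 11 of these 13 fits. They numbered 12 with sample quality weights, where 38.2% of all genes were DE in either direction. The cause was not tested. No paired analysis was possible because no rat number occurs at both ages.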
